A study of Mus musculus with 6 samples.

Results

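Doxycycline was added to every cell line of this study, including the control line that carries no inducible Sox17, so the 6 arrays can be read as 3 pairs that ask which transcripts differed with the drug itself. The comparison set the 3 arrays with doxycycline against the 3 arrays without it, paired by line, and used all 6 arrays of the series. The lines were the control mouse embryonic stem cell line KH2 (KH2_dox, n = 1, and KH2_untreated, n = 1) and 2 independently derived Sox17-inducible lines (Sox17_dox, n = 2, and Sox17_untreated, n = 2), called line 1 and line 2 here. The medium held serum and LIF, no feeder cells were used, and the treated cells had 1 µg/mL doxycycline for 5 days. Each line gave 1 array per treatment, no replicate cultures are described, and the labels give neither the promoter nor the construct that drives Sox17. Of 25697 probes, 12373 were tested, those with a detection p under 0.05 on 2 or more of the 6 arrays, and reading each gene by its brightest tested probe gave 8605 genes.

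Doxycycline is a tetracycline antibiotic that stalls bacterial ribosomes, and it can also slow the related ribosomes of mitochondria, which make core subunits of the respiratory chain. It is known, too, as an inhibitor of matrix metalloproteinases. In inducible cells it binds a transactivator protein that then switches on the transgene. KH2 is known as a stem cell line that already carries such a transactivator, so KH2 with doxycycline is a control for both the drug and the active transactivator, which cannot be told apart here.

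Sox17 itself was not tested, because its 2 probes were detected on 1 array in all. The brighter of the probes lay between 5.203 and 5.601 (log2) on the untreated arrays, at 5.31 in treated KH2, 5.61 in treated line 1 and 6.47 in treated line 2, and of the 6 arrays only the last passed detection. The treated array of line 1 had a detection p of 0.0652, so induction of Sox17 in that line is not shown by a detected signal. The labels name the line as inducible and do not say whether the probes read the inducible copy.

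The cultures read as embryonic stem cells on all arrays. All 8 stem cell markers fixed for the check, among them Pou5f1, Nanog, Sox2 and Esrrb, were detected on all 6 arrays, their change with doxycycline in any line lay between -0.54 and 0.35 on the log2 scale, and none reached an unadjusted p of 0.05. A technical measure moved with the drug: 11219 to 11659 probes were detected on the arrays with doxycycline and 11781 to 11957 on those without, so that these ranges did not overlap, while the median raw signal was higher with doxycycline in each line (lowest pair 116 against 109 units, in line 2). Treated arrays sat at chip positions A, C and E and untreated arrays at B, D and F of 1 chip. The part of these differences in the results below was not tested.

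All levels and changes below are on the log2 scale of normalised signal, where a change of 1 is 2-fold, and a change is doxycycline minus untreated in the same line. Smarca1, which encodes an ATPase of the ISWI family that slides nucleosomes, was among the lowest genes. It read 8.13 without and 6.39 with doxycycline in KH2, 8.10 and 7.22 in line 1, and 7.23 and 6.18 in line 2, so that all treated arrays lay below all untreated ones, though only narrowly between treated line 1 and untreated line 2. The mean change was -1.22 ± 0.19 (SE, n = 3 pairs, limma adjusted p = 0.0766). Lrrc75a, a gene for a leucine-rich repeat protein, was higher by nearly the same amount in each line, from 9.34 to 10.33 in KH2, from 8.88 to 9.86 in line 1 and from 9.65 to 10.59 in line 2. Its treated arrays all lay above its untreated ones, and the mean change was 0.97 ± 0.15 (SE, n = 3 pairs, limma adjusted p = 0.0766). Its other 2 tested probes were higher in all lines too, by 0.80, 0.88 and 0.79, and by 0.67, 0.33 and 0.81, in KH2, line 1 and line 2. The last probe was detected on no untreated array, and was at least 1.24-fold higher against the detection limit.

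**Figure D1:**
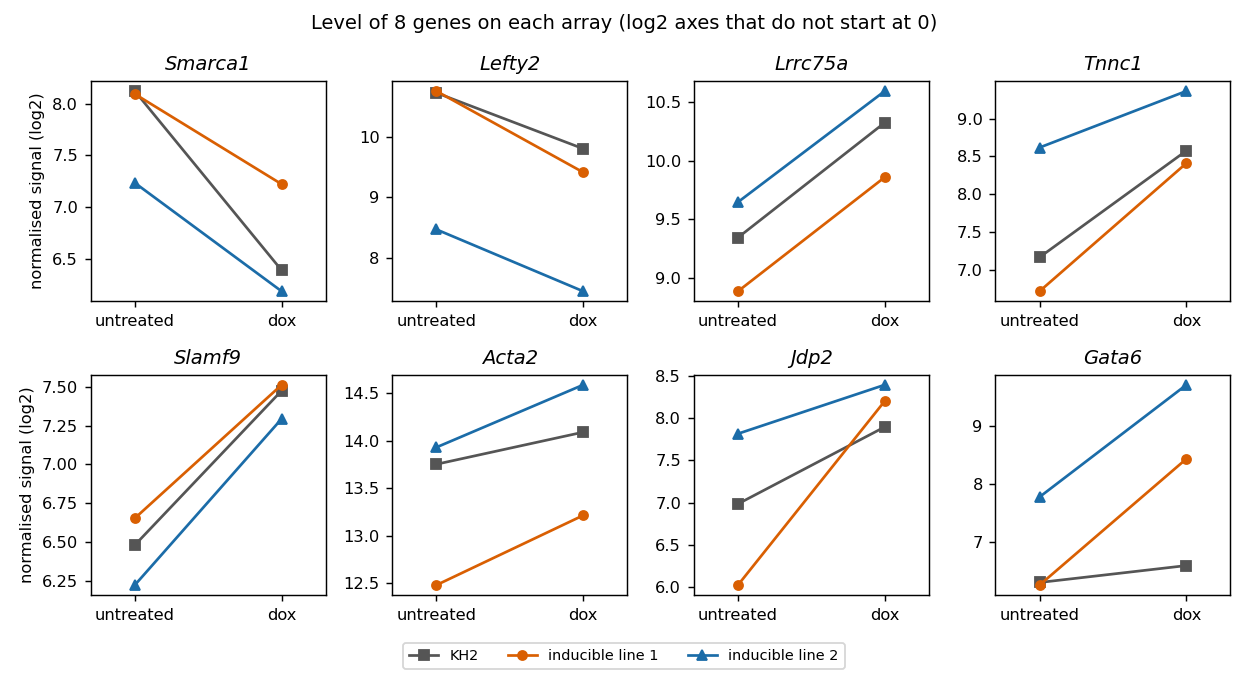
Normalised signal (log2) of 8 genes on each of the 6 arrays, untreated at left and doxycycline at right, with 1 line joining the pair of each cell line. Smarca1 and Lefty2 were lower and Lrrc75a, Tnnc1, Slamf9, Acta2 and Jdp2 higher in all 3 lines, while Gata6 was at 0.29 in KH2, 2.18 in line 1 and 1.94 in line 2 (changes).

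No single probe passed the test. With the line as a block, limma left 0 of the 12373 probes below an adjusted p of 0.05 (0% higher and 0% lower), with a smallest adjusted p of 0.0766 shared by 11 probes. At an unadjusted p under 0.05 stood 841 probes that were higher (6.8%) and 948 that were lower (7.66%). When the spread was moderated along the signal level and robustly, the same fit called 85 probes, 56 higher (0.453%) and 29 lower (0.234%), with a smallest adjusted p of 0.0155. Because the call turns on that choice, genes are given here by size and by agreement between lines. Without line 1 the fit called 86 probes as higher and 182 as lower, without line 2 it called 15 and 13, and without KH2 1 and 0.

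Agreement between the lines was partial. Of 8605 genes, 1591 were higher in all 3 lines (18.5%) and 1569 lower in all 3 (18.2%). At least 1.2-fold in each line, 272 genes were higher (3.16%) and 283 lower (3.29%). At least 1.5-fold in each line, 21 genes were higher (0.244%) and 22 lower (0.256%), and 0 genes reached 2-fold in each. The changes of line 1 and line 2 correlated with r = 0.33 across genes (Spearman 0.31), those of KH2 with line 2 with r = 0.28 (0.24), and those of KH2 with line 1 with r = 0.18 (0.17). The pairs share a chip but no array, and genes are not independent replicates. Over the genes, differences between lines made up 56.7% of the sum of squares, the change shared by the lines 21.7% (1 degree of freedom), and the change that differed between lines 21.6% (2 degrees of freedom). The last was 10.8% per degree of freedom. The shared part is taken from the mean of the 3 changes and so holds some of that spread too. Where KH2 and line 1 were both at least 1.5-fold higher (73 genes) or lower (74), line 2 had the same sign for 60 and 64 genes and was 1.5-fold the opposite way for 0. Where KH2 and line 2 were both 1.5-fold higher (59 genes) or lower (112), line 1 had the same sign for 46 and 83 and was 1.5-fold opposite for 2 and 4. Of the 96 genes that were 1.5-fold higher in both inducible lines, 74 were also higher in KH2, and of the 69 that were lower in both, 41 were lower in KH2, which was 1.5-fold opposite for 3 and 1.

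**Figure D2:**
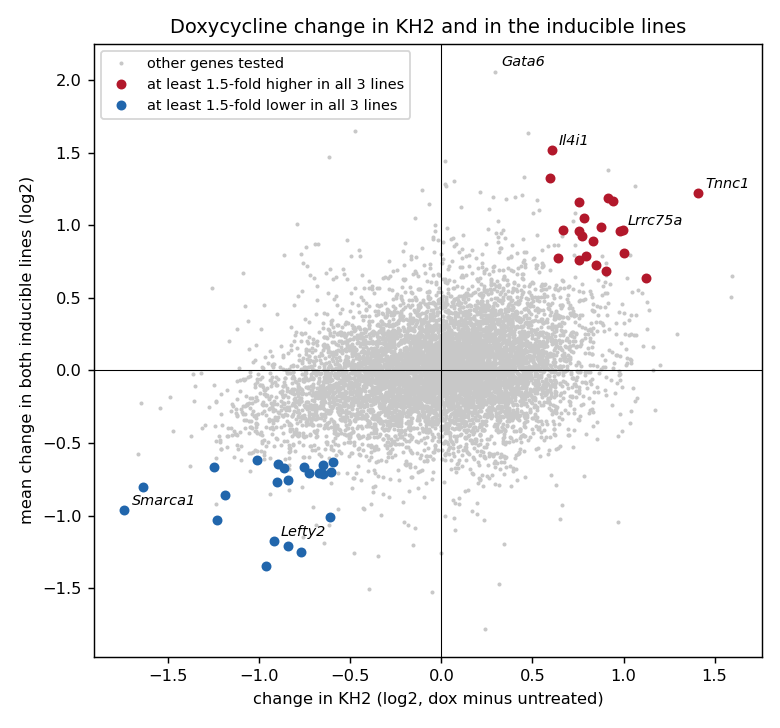
Change with doxycycline in KH2 (horizontal, log2) against the mean change of both inducible lines (vertical, log2) for each of 8605 genes. The 21 red and 22 blue genes were at least 1.5-fold higher or lower in each of the 3 lines, and Gata6 lies high on the vertical axis at 0.29 in KH2.

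The 12 highest genes were ranked by the smallest of their 3 changes. Tnnc1, which encodes the calcium-binding troponin of slow and cardiac muscle, read 7.17 and 8.57 in KH2 without and with doxycycline, 6.72 and 8.41 in line 1, and 8.62 and 9.36 in line 2. The line 2 array without drug was above the treated arrays of the other lines, so the groups overlapped, but each pair was higher with the drug, by 1.28 ± 0.19 on average (SE, n = 3 pairs, limma adjusted p = 0.0766). Nppb, which encodes the brain natriuretic peptide, read 6.70 and 7.58 in KH2, 5.85 and 6.63 in line 1, and 7.33 and 8.52 in line 2. It too overlapped between treatments because line 2 started high, and its mean change was 0.95 ± 0.16 (limma adjusted p = 0.105). Hbegf, which encodes a ligand of the EGF receptor, was higher by 0.76 in KH2, 1.31 in line 1 and 1.00 in line 2.

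Slamf9, a surface receptor of the SLAM family, differed little between the lines. It read 6.48 and 7.48 in KH2, 6.65 and 7.51 in line 1, and 6.22 and 7.29 in line 2, with no overlap between treated and untreated arrays. Gpat3, an acyltransferase of glycerolipid synthesis that was not detected on the untreated line 1 array, was higher by 0.94, 1.38 and 0.95 in KH2, line 1 and line 2. Its other probe, not detected on the untreated arrays of KH2 and line 1, gave 0.71, 1.46 and 1.58. The small GTPase gene Mras was higher by 1.00, 0.89 and 0.73, and the phospholipase C gene Plcd1 by 0.76, 0.97 and 0.96. Rin3, an activator of the endosomal GTPase Rab5, was higher by 0.83, 1.02 and 0.77. Rusc2, Tmem106a, not detected on the untreated arrays of KH2 and line 1, and the X-linked homeobox gene Rhox6 completed the 12. Over these 12 genes the mean changes ran from 0.79 to 1.28 with SEs of 0.15 to 0.19 and adjusted p of 0.0766 to 0.121. In 4 of them the treated and untreated arrays did not overlap, as in 5.17% of all genes. The ranking itself favours genes without overlap, so nothing is read from that count.

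Among the other 9 genes at least 1.5-fold higher in each line, Ccn1, a secreted matricellular protein, was higher by 0.75, 0.60 and 0.93 in KH2, line 1 and line 2. Cdh3, the P-cadherin gene, was higher by 0.67, 1.35 and 0.59, and Il4i1, a secreted amino acid oxidase, by 0.61, 2.22 and 0.81. Htra1, a serine protease outside the cell, was at 0.60, 1.64 and 1.01. Cited4, a transcriptional coactivator, was the gene of these 9 with the largest KH2 value (1.12, against 0.59 and 0.69). Line 1 had the largest of the 3 changes in 11 of the 21 higher genes, and KH2 and line 2 in 5 each. Just inside the 1.5-fold limit was Cdh3 with a smallest change of 0.59, and just outside it Jdp2 with 0.58.

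**Figure D3:**
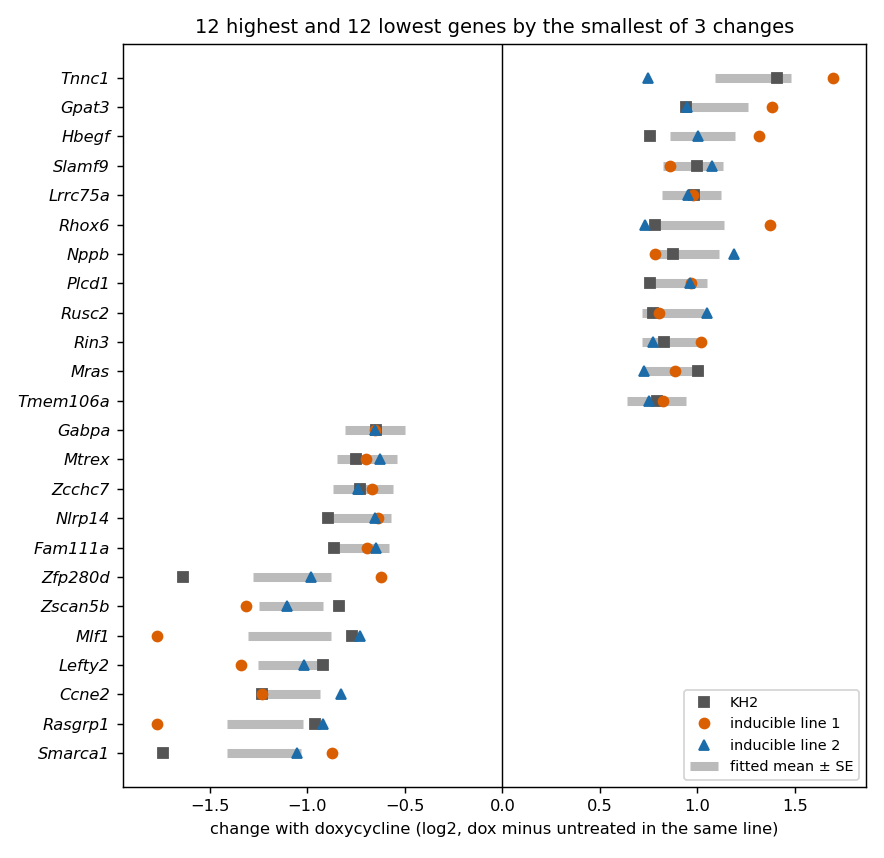
Change with doxycycline (log2) of the 12 highest and 12 lowest genes in KH2 (squares), line 1 (circles) and line 2 (triangles), with the fitted mean ± SE as a grey bar. The 3 points of Lrrc75a and of Gabpa nearly coincide, while those of Smarca1, Zfp280d, Mlf1 and Rasgrp1 spread widely on the same side of 0.

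The 12 lowest genes were ranked in the same way. Lefty2, a secreted inhibitor of Nodal signalling, read 10.72 and 9.80 in KH2 without and with doxycycline, 10.75 and 9.41 in line 1, and 8.47 and 7.45 in line 2. Line 2 lay below the other lines in both treatments, so the groups overlapped, while each pair was lower with the drug by a like amount (-1.09 ± 0.16, SE, n = 3 pairs, limma adjusted p = 0.0766). Its relative Lefty1 gave -0.48, -1.49 and -1.02 in KH2, line 1 and line 2 (limma adjusted p = 0.129). Rasgrp1, an exchange factor that activates Ras, gave changes of -0.96, -1.77 and -0.92. It was not detected on the treated arrays of line 1 and line 2, so those differences reach into the background. Ccne2, the cyclin E2 gene, was detected on 2 untreated arrays, those of KH2 and line 1, and on no array with doxycycline. Against the detection limit its mean was at least 1.55-fold lower, with the undetected untreated array of line 2 averaged in. Its line 2 change of -0.83, which sets its rank, lay between arrays without detection, so a change in line 2 is not shown. Zscan5b, a zinc finger gene likewise not detected on the treated arrays of line 1 and line 2, gave changes of -0.84, -1.31 and -1.10.

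Mtrex, the helicase that feeds RNA to the nuclear exosome, read 11.09 and 10.34 in KH2 without and with doxycycline, 11.41 and 10.71 in line 1, and 10.78 and 10.15 in line 2. Zcchc7, known in human cells as a partner of that helicase in a nuclear RNA surveillance complex, gave -0.73, -0.67 and -0.74, and -0.80, -0.77 and -0.59 by its other probe. Both were without overlap between treated and untreated arrays. Gabpa, an ETS family factor that drives many nuclear genes of mitochondrial proteins, gave -0.65 in each of the 3 lines by its brighter probe and -0.40, 0.25 and -0.24 by its dimmer one. The other genes of the 12 were Mlf1, the protease gene Fam111a, Zfp280d and Nlrp14, which was not detected on the treated arrays of KH2 and line 2. In 8 of the 12 the groups did not overlap, as in 5.94% of all genes, with the same bearing of the ranking on that count, and adjusted p ran from 0.0766 to 0.143.

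Another 10 genes were at least 1.5-fold lower in each line by normalised signal, whether or not an array passed detection. Of these, Spink2 and Ahsa2 were detected on no array with doxycycline. Against the detection limit they were at least 1.16-fold and 1.23-fold lower, so a 1.5-fold size is not shown for them. Mad2l1, a spindle checkpoint protein, gave -0.60, -0.65 and -0.61 in KH2, line 1 and line 2, and Kpnb1, the nuclear import receptor importin beta, -0.65, -0.82 and -0.60. Tgs1, which modifies the cap of small nuclear RNAs, gave -1.25, -0.73 and -0.60, but -0.89, -0.16 and -0.27, and -0.13, -0.08 and -0.43, by its other probes. Nsun2, an RNA methyltransferase, gave -0.67, -0.60 and -0.81. The limit fell between Mad2l1 (-0.60) and Mbtd1 (-0.57). The 22 lower genes were dimmer than the 8605 genes tested, with a median level of 7.45 against 8.36, while the 21 higher genes had 8.14. Their median bead standard error was 4.56% of the signal, against 4.47% for the higher genes and 4.49% for all genes. The genomic span of the gene had a median of 27.0 kb for the lower, 22.0 kb for the higher and 20.3 kb for all genes, with quartiles of 16.4 and 62.1, 3.42 and 46.1, and 8.66 and 45.4 kb.

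Several probes of a gene mostly told the same story. Of the 43 genes at least 1.5-fold apart in each line, 10 had several tested probes, and 13 of their 14 other probes had the same sign in all 3 lines as the brightest. The exception was the dimmer Gabpa probe, and 5 of the 14 were at least 1.5-fold in each line.

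Whether the drug response differed between the inducible lines and KH2 was tested by an interaction term, which rests on 1 KH2 pair. It called 0 of 12373 probes (smallest adjusted p = 0.482), and 1262 reached an unadjusted p under 0.05 (10.2%). Of the 24 highest and lowest genes, 2 had an unadjusted p under 0.05, Smarca1 and Zfp280d, which were lower by more in KH2 (-1.74 and -1.64). Gata6, a transcription factor of primitive endoderm, had a difference of 1.77 ± 0.30 (SE, limma unadjusted p = 0.000373, adjusted p = 0.482).

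Contractile and actin cytoskeleton genes were more often higher than lower with doxycycline, in the control line as in the inducible lines. Of 26 tested genes of that list, 15 were higher in all 3 lines (57.7%, against 18.5% of all genes) and 0 lower in all 3. The median change was 0.29, and 0.27, 0.22 and 0.37 in KH2, line 1 and line 2, where the median of all genes was 0.00. An unadjusted p under 0.05 was reached by 9 that were higher and 0 that were lower, against 6.93% and 7.88% of all genes, and 0 passed an adjusted p of 0.05 (2 with trend and robust moderation, Acta2 and Csrp1).

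Acta2, smooth muscle actin, read 13.75 and 14.09 in KH2 without and with doxycycline, 12.48 and 13.22 in line 1, and 13.93 and 14.58 in line 2. The lines differed more than the treatments did, with line 1 lowest in both. The change was 0.57 ± 0.16 by this brightest probe (SE, n = 3 pairs, limma adjusted p = 0.172). By the other 3 probes it was 0.83 ± 0.15, 0.89 ± 0.16 and 0.92 ± 0.16 (adjusted p = 0.113, 0.105 and 0.105), and all 12 within-line values were above 0. Tagln, the actin-binding transgelin of smooth muscle, read 7.90 and 8.68 in KH2, 6.53 and 7.03 in line 1, and 7.79 and 8.48 in line 2. Line 1 was again the lowest in both treatments, and KH2 the highest. Csrp1, a LIM protein of actin bundles, was higher by 0.93, 0.55 and 0.64, and the calponin gene Cnn2 by 0.42, 0.38 and 0.54. Myh10, nonmuscle myosin heavy chain IIB, was lower on average (-0.43, -0.18 and 0.49).

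Markers of other cells bear on these genes, because contractile genes are also read as fibroblast genes. Of 12 tested genes of the fibroblast and feeder cell list, 5 were higher in all 3 lines (41.7%, against 18.5% of all genes) and 0 lower (against 18.2%), with a median of 0.31. S100a4 was at 1.02, 0.97 and 0.31 (not detected on the untreated arrays of KH2 and line 1) and Twist1 at 0.20, 0.18 and 0.19. Thy1 was lower on average (0.01, -0.71 and 0.26). The list shares Acta2 and Tagln with the contractile list, and Acta2 alone made up 69.0% to 85.0% of its summed level on the linear scale (8296 to 18829 units without and 12572 to 28911 with doxycycline). Over the 10 genes not on the contractile list, 3 were higher and 0 lower in all 3 lines, to be read against the same shares of all genes. Their median change was 0.25, and the sums were 2478 to 3916 units without and 2932 to 4424 with doxycycline. Of 22 genes of the list on the array, 10 were detected on 0 arrays, among them Col1a2, Col3a1, Pdgfrb and Dcn. Another 8 were detected on all 6 arrays, Acta2, Tagln, Col5a1, Fbln1, Lox, Loxl1, Thy1 and Twist1, and 4 on some, with Col1a1 and Twist2 on 5 and Col6a1 and S100a4 on 4. The part of fibroblasts in the contractile values was not tested. For the trophoblast list, 9 genes were tested, 1 was higher in all 3 lines and the sums were 10326 to 19440 and 9100 to 28196 units. The mesoderm and neuroectoderm lists had 3 and 5 tested genes, with sums of at most 185 and 488 units.

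Of 18 tested immediate early and serum response genes, 6 were higher (33.3%, against 18.5% of all genes) and 2 lower (11.1%, against 18.2%) in all 3 lines, with a median of 0.05. Ccn1 (above) and Atf3 (0.40, 1.74 and 0.65, not detected on the untreated line 1 array) led. Ankrd1, a muscle ankyrin repeat protein, was at 0.28, 0.25 and 0.34, Dusp1 at 0.02, 0.03 and 0.04, and Ier3 at 0.06, -1.12 and 0.05.

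Promoters of 3 genes that were higher in all 3 lines are shown with a short motif that they hold. The letters CATTCC, the core of the element bound by TEAD factors, were searched on both strands in the 250 bases before and 50 after each start, as given by RefSeq for GRCm38.p6. They were found in 9 of the 22 contractile list genes with a promoter in the table (40.9%) and in 5 of the 12 of these higher in all 3 lines, against 14.4% of 7002 tested genes. Of the 17 higher 1.5-fold genes with a promoter there, 4 held them (23.5%), Ccn1, Nppb, Sh3tc1 and Tnnc1. Of 215 genes at least 1.2-fold higher in each line, 37 held them (17.2%), a share near that of all genes. In the contractile list, the share was close to that of the whole list when only genes higher in all 3 lines were counted. The motif was chosen after the values were seen, and a match is not a bound site. Capitals mark the match, here on the opposite strand in each, at position -146 in Acta2 (chr19:34255324-34255623, minus strand), -105 in Nppb (chr4:147985650-147985949, plus strand) and -58 in Tnnc1 (chr14:31208062-31208361, plus strand), counted with the transcript start at 0.
Acta2: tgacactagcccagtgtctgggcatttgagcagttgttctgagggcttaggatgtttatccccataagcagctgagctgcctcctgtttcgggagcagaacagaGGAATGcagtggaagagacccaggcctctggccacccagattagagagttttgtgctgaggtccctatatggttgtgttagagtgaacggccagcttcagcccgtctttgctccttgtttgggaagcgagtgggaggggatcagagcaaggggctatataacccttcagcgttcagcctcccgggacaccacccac
Nppb: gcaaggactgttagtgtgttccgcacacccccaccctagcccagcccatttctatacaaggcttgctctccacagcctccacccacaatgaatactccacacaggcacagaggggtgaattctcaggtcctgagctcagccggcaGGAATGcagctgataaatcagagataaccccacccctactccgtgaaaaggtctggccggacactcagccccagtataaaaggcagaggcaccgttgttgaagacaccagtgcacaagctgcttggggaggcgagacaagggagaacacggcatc
Tnnc1: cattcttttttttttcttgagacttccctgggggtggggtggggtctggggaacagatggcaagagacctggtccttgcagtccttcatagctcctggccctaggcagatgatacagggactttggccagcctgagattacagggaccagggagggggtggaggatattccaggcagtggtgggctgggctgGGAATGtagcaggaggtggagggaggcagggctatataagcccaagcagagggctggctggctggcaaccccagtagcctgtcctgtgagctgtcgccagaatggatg
The CArG box, the element bound by serum response factor, was searched too. It was found in 6 of the 22 contractile list genes (27.3%, against 1.69% of all genes). It was found in 3 of the 12 of these higher in all 3 lines, and in 0 of the 17 higher 1.5-fold genes. Srf, the gene of serum response factor, is itself on the list and among the 6. The share among the genes higher in all 3 lines was close to that of the whole list. The excess over all genes therefore describes the list and not the response to the drug.
Tead4, a TEAD factor named here after its values were seen, was higher by 0.73, 1.48 and 0.58 in KH2, line 1 and line 2. Its dimmer probe gave 1.08, 1.51 and 0.44. Other TEAD genes are not given here, and the part of TEAD factors in these values was not tested.

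Genes of amino acid shortage and the ATF4 pathway, in which a stress-induced factor switches on enzymes and transporters for amino acids, had medians above 0 in all lines, the highest in line 1. Of 42 tested genes, 21 were higher in all 3 lines (50%, against 18.5% of all genes) and 0 lower in all 3 (against 18.2%). An unadjusted p under 0.05 was reached by 15, all higher, against 6.93% of all genes that were higher. The median change was 0.35, with 0.11 in KH2, 0.63 in line 1 and 0.19 in line 2. None passed an adjusted p of 0.05, and 2 did with trend and robust moderation, Jdp2 and Trib3.

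Jdp2, a repressor of AP-1 and ATF genes, read 6.98 and 7.90 in KH2 without and with doxycycline, 6.02 and 8.21 in line 1, and 7.82 and 8.40 in line 2. All treated arrays were above all untreated ones, and the change was 1.23 ± 0.26 (SE, n = 3 pairs, limma adjusted p = 0.137). Trib3, a pseudokinase that restrains the ATF4 response, read 8.35 and 9.08 in KH2, 7.99 and 9.76 in line 1, and 9.04 and 9.44 in line 2. Its highest untreated array, that of line 2, was just below its lowest treated one, that of KH2. Ddit3, the stress factor CHOP, was higher by 0.48, 2.29 and 0.98, and Atf3 as above. Ddit4, an inhibitor of growth signalling by mTOR, was lower on average (-0.20, -1.01 and 0.14).

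The letters TGATGNAA, the core of the element bound by ATF4 with a CEBP partner, were searched in the same windows and on both strands. They were found in 14 of 34 tested genes of this list with a promoter in the table (41.2%) and in 7 of the 18 of these higher in all 3 lines, which were Asns, Atf3, Fgf21, Gars, Jdp2, Nupr1 and Trib3, against 2.97% of 7002 tested genes. The list is one of known ATF4 target genes, so the share describes the list and not the response to the drug. Both promoters shown hold the match on the opposite strand, Trib3 at position 14 (chr2:152344011-152344310, minus strand) and Atf3 at position -110 (chr1:191183284-191183583, minus strand), in GRCm38.p6 and marked by capitals.
Trib3: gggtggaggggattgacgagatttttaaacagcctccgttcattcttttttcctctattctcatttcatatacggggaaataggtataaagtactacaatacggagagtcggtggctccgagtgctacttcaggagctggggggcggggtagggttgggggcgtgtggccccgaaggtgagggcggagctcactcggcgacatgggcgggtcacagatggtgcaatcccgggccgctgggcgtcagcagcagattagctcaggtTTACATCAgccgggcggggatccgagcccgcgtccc
Atf3: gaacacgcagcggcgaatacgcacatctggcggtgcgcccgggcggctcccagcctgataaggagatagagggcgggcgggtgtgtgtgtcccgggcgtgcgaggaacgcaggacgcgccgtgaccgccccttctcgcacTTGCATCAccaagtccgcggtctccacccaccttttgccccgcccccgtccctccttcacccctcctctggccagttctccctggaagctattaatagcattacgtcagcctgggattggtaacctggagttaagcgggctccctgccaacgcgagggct

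Mitochondrial genes, those closest to the known action of doxycycline on mitochondrial ribosomes, had medians near 0. Of 71 tested mitochondrial ribosomal protein genes, 9 were higher and 14 lower in all 3 lines (12.7% and 19.7%, against 18.5% and 18.2% of all genes), with a median of -0.03. An unadjusted p under 0.05 was reached by 6 of the 71, all lower, a share near the 7.88% of all genes. Mrpl50, a protein of the large subunit, read 10.67 and 9.72 in KH2, 10.86 and 10.48 in line 1, and 10.55 and 9.95 in line 2. All its treated arrays lay below its untreated ones. Mrpl1 (-0.83, -0.36 and -0.48), Mrpl42 (-0.37, -1.04 and -0.33) and Mrpl18 (-0.39, -0.61 and -0.31) were lower as well, while Mrpl39 was at 0.58, 0.05 and 0.17. The dimmer Mrpl1 probe, detected on 2 arrays, gave -0.38, 0.10 and -0.11.

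Of 68 nuclear genes of the respiratory chain, 14 were higher and 4 lower in all 3 lines, with a median of 0.04. The share of higher genes, 20.6%, was near the 18.5% of all genes, and that of lower genes was 5.88%, against 18.2%. Cox6a1 and Cox4i1, subunits of cytochrome c oxidase, were at 0.55, 0.10 and 0.27, and at 0.36, 0.24 and 0.13. The other Cox6a1 probe gave 0.50, -0.03 and 0.14. Uqcrc1 and Uqcrc2, core subunits of the cytochrome bc1 complex, were at 0.25, 0.08 and 0.18, and at 0.14, 0.11 and 0.24. Another oxidase subunit, Cox7b, was lower (-0.61, -0.46 and -0.57, limma adjusted p = 0.172), and was not detected on the treated KH2 array. Of 31 factors of mitochondrial translation and transcription, 3 were higher and 6 lower in all 3 lines (9.68% and 19.4%, median -0.04). Mtrf1l, a release factor of mitochondrial ribosomes, gave -1.17, -0.41 and -0.38, Tfam, which packages mitochondrial DNA, -0.52, -0.24 and -0.40, and Mtrf1 -0.31, -0.54 and -0.29. Lrpprc gave -0.79, -0.14 and -0.12 by its brightest probe, but -0.49, 0.21 and 0.37, and -0.13, -0.18 and 0.22, by its other probes. The mitochondrial tRNA ligase gene Fars2 was at 0.32, 0.27 and 0.15. Of 17 mitochondrial chaperones and proteases, 3 were higher and 3 lower in all 3 lines (17.6% each, near the shares of all genes). Atf5, a transcription factor of the mitochondrial stress response, was at 0.31, 0.96 and 0.27, Tomm40 at 0.18, 0.27 and 0.37 and Clpp at 0.48, 0.17 and 0.02, and the protease gene Yme1l1 at -1.15, -0.32 and -0.57.

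Metalloproteinases, which doxycycline is known to inhibit, and their inhibitors were tested through 14 genes together, of which 6 were higher (42.9%, against 18.5% of all genes) and 0 lower (against 18.2%) in all 3 lines, with a median of 0.29. Timp1, a secreted inhibitor of these enzymes, read 12.29 and 12.74 in KH2 without and with doxycycline, 11.78 and 12.64 in line 1, and 12.62 and 13.03 in line 2. Timp2, another inhibitor, read 8.84 and 9.26, 8.11 and 8.91, and 8.72 and 9.32. In both genes the treated arrays all lay above the untreated ones, closely so for Timp1 between untreated line 2 and treated line 1. Mmp17, a membrane-anchored enzyme, was higher by 0.52, 0.39 and 0.35, and Mmp11 by 0.32, 0.33 and 0.49, while Adam17, a sheddase, was at -0.62, 0.07 and -0.38. Lysosomal and autophagy genes had 6 of 18 higher (33.3%, against 18.5% of all genes) and 0 lower (against 18.2%) in all 3 lines (median 0.18). The lysosomal hydrolase genes Hexa and Neu1 were at 0.66, 0.78 and 0.47, and at 0.42, 0.53 and 0.64. The protease Ctsb was at 0.33, 0.39 and 0.22, Wipi1 at 0.11, 0.15 and 0.54, and Atg5 at -0.72, 0.11 and 0.09. The other Atg5 probe gave -0.47, -0.08 and -0.31.

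**Figure D4:**
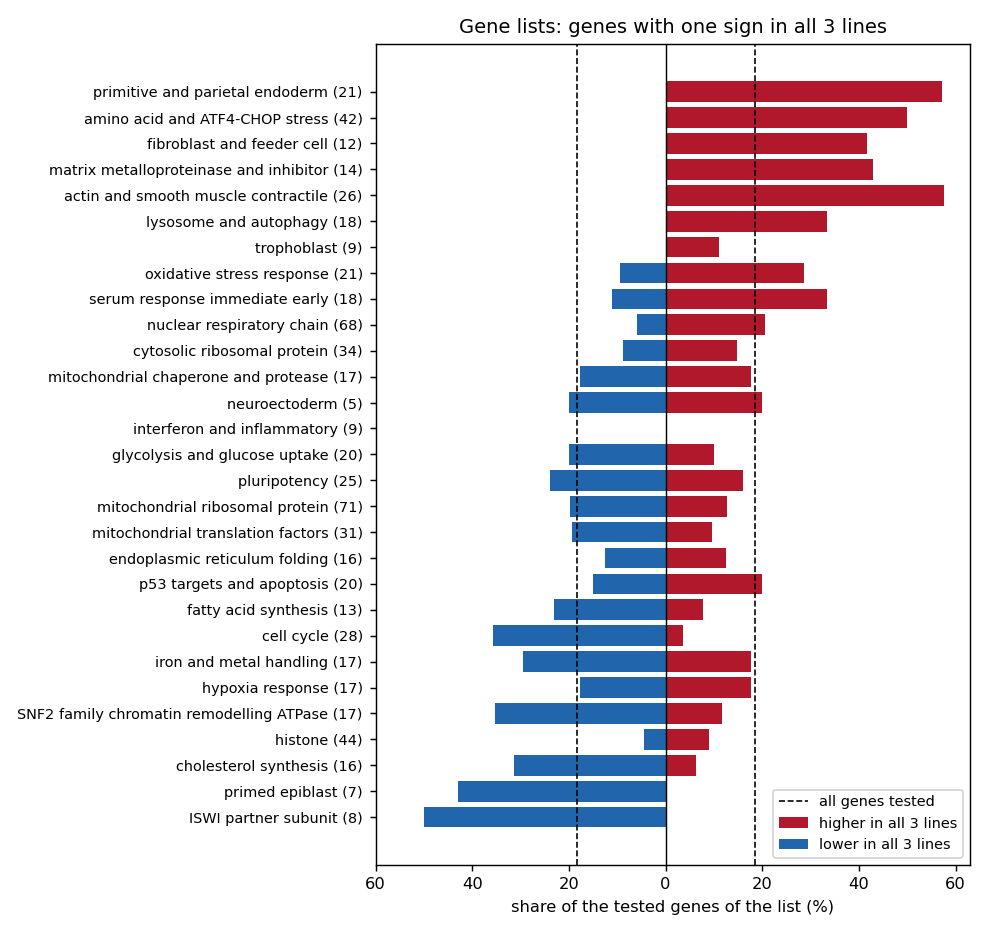
Share of the tested genes of each list (number tested in brackets, lists with at least 5) that were higher in all 3 lines (red, to the right) or lower in all 3 (blue, to the left), in percent, ordered by median change. Dashed lines mark 18.5% and 18.2%, the shares of all 8605 genes.

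Chromatin remodelling ATPases of the SNF2 family, to which Smarca1 belongs, were lower more often than higher, with the largest sizes in KH2. Of 17 tested, 2 were higher and 6 lower in all 3 lines (11.8% and 35.3%, against 18.5% and 18.2% of all genes). The medians were -0.38 in KH2, -0.16 in line 1 and 0.05 in line 2. Smarcad1 gave -1.04, -0.40 and -0.40, Shprh -1.04, -0.42 and -0.19, and Chd1 -1.05, -0.17 and -0.36, all with a larger size in KH2 by the brightest probe. The other Chd1 probe gave -0.32, -0.21 and -0.72, with the largest size in line 2. Ino80 was at 0.10, 0.39 and 0.05, detected on the line 1 arrays alone. Of 8 tested genes of ISWI complexes, 4 were lower in all 3 lines (50%, against 18.2% of all genes) and 0 were higher. The lower genes were Smarca1 itself, Rsf1 (-1.05, -0.43 and -0.27), Baz2a (-0.43, -0.79 and -0.01) and Rbbp7 (-0.17, -0.30 and -0.15). Smarca1, with which the list was chosen, is itself among its members, Baz2a was detected on the line 1 arrays alone, and Rsf1 was not detected on the treated arrays of KH2 and line 2, so these counts rest in part on values not above background.

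Cell cycle genes were lower more often than higher, with 10 of 28 lower in all 3 lines (35.7%, against 18.2% of all genes), 1 higher and a median of -0.11. Ccne2 is given above, the replication clamp gene Pcna was at -0.29, -0.48 and -0.32, the phosphatase gene Cdc25a at -0.33, -0.57 and -0.15 and the inhibitor Cdkn1c at -0.29, -1.25 and -0.50. Ccnd3, cyclin D3, was the opposed member, higher by 0.55, 0.64 and 0.52 (limma adjusted p = 0.163). Its other probes gave 0.68, 0.97 and 0.74, and, by the dimmest, 0.44, -0.10 and -0.10. Of 25 pluripotency genes, 4 were higher and 6 lower in all 3 lines (16% and 24%, against 18.5% and 18.2% of all genes, median -0.03). Besides the Lefty genes, Dppa3 (-0.49, -0.23 and -1.39) and the nuclear receptor gene Nr5a2 (-0.36, -0.58 and -0.68) were lower. The T-box gene Tbx3 was at 0.44, 1.31 and 1.11 by its brightest probe. The other Tbx3 probes gave -0.04, 0.89 and 0.65, and, by the dimmest, -0.17, 0.04 and 0.46, so a higher level in KH2 was seen by the brightest alone.

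Endoderm genes had the highest median change of the 30 lists (0.53). Of 21 tested genes of primitive and parietal endoderm, 12 were higher in all 3 lines (57.1%, against 18.5% of all genes) and 0 lower (against 18.2%). The medians were 0.27 in KH2, 0.78 in line 1 and 0.58 in line 2. An unadjusted p under 0.05 was reached by 13, all higher, against 6.93% of all genes that were higher. The leading members encode matrix proteins or a surface receptor. Lamb1 gave 0.56, 0.88 and 0.58 (not detected on the untreated line 1 array), Col4a2 0.50, 1.27 and 0.90, and Sparc 0.44, 0.78 and 0.56. Thbd, thrombomodulin, gave 0.36, 1.37 and 0.99 (not detected on the untreated arrays of KH2 and line 1). Amn, a visceral endoderm receptor subunit, was lower in line 1 alone (0.33, -1.04 and 0.51). The summed level of the list was 13966 to 23083 units without and 19899 to 34473 with doxycycline, and was higher with the drug in each line. Of 30 genes of the list on the array, 15 were detected on all 6 arrays, among them Apoe, Dab2 and Amn, and 10 on some, with Hnf4a and Gata4 on 4. The 5 detected on 0 arrays were Afp, Foxa2, Plat, Pth1r and Ttr.

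The remaining lists are given by their counts, to be read against 18.5% and 18.2% of all genes. Higher and lower in all 3 lines were 2 and 4 of 20 glycolysis genes, 3 and 3 of 17 hypoxia genes, 3 and 5 of 17 iron and metal genes, 6 and 2 of 21 oxidative stress genes, and 4 and 3 of 20 p53 and apoptosis genes. The counts were 2 and 2 of 16 for endoplasmic reticulum folding, 1 and 5 of 16 for cholesterol synthesis, 1 and 3 of 13 for fatty acid synthesis, and 5 and 3 of 34 for cytosolic ribosomal proteins. They were 4 and 2 of 44 for histones (9.09% and 4.55%), 0 and 3 of 7 for primed epiblast (42.9% lower), and 0 and 0 of 9 for interferon and inflammatory genes.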

How the data were processed

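Total RNA from 6 cultures was amplified, labelled and hybridised to Illumina MouseRef-8 v2 arrays, per the labels. Per the file headers, the deposited raw table gives for every probe a mean intensity over beads, the standard error of that intensity, a bead number and a detection p-value, and it was not normalised. The other deposited table has the authors' processed intensity, made in BeadStudio per the submitters' processing notes; the normalisation behind it is not given in the sources used here.

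The raw signal went through neqc (limma 3.58.1, R 4.3.3), which estimates background from detection p-values, adds an offset (16), applies quantile normalisation and takes log2. Probes detected (p under 0.05) on 2 or more of 6 arrays entered limma (lmFit, eBayes, two-sided, Benjamini-Hochberg over 12373 probes, threshold 0.05) with the line as a block, which leaves 2 residual degrees of freedom and a prior of 8.70. P-values measure the spread between these samples only. The interaction of doxycycline with inducible Sox17 was fitted likewise. Pairing follows the labels, which name each line; deviations from the treatment means correlated by 0.43 (KH2), 0.40 (line 1) and 0.56 (line 2) within a line and by -0.11 to -0.34 between lines. Where 1 treatment had no detected array, a bound against the detection limit is given. The bead number had a median of 38 to 40, and the number of arrays limits the precision. Fits were tested on simulated data.

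Symbols come from the platform annotation, updated by Entrez number through a RefSeq gene table (GRCm38.p6, names and gene spans only, no positions); 23978 probes had 1 gene symbol, 0 several and 1719 none. Named are the 12 genes highest and the 12 lowest by the smallest of the 3 changes among genes of 1 sign, Smarca1, Acta2, and from each list described up to 4 leading members and the most opposed one. The members and all 30 gene lists were chosen with earlier results of these data known. Alternatives covered the block, background, normalisation, filter, moderation, the authors' values, the probe of a gene and each line left out.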

Additional observations from a re-analysis of the deposited data

Results flagged for a closer look

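In 7 gene lists the median change of KH2 had the opposite sign to both inducible lines. These differences were not tested. Histone genes had a median of 0.20 in KH2 against -0.35 in line 1 and -0.37 in line 2. The medians of KH2, line 1 and line 2 were 0.15, -0.10 and -0.12 for mitochondrial ribosomal proteins, 0.033, -0.06 and -0.12 for factors of mitochondrial translation, and -0.18, 0.09 and 0.10 for endoplasmic reticulum folding. They were -0.28, 0.01 and 0.12 for hypoxia genes, 0.15, -0.37 and -0.02 for cholesterol synthesis, and 0.21, -0.07 and -0.11 for interferon and inflammatory genes. Among the genes named, the autophagy gene Atg5 read -0.72 in KH2 against 0.11 and 0.09 in the inducible lines by its brighter probe. Its other probe, detected on all 6 arrays, gave -0.47, -0.08 and -0.31, so the opposite sign was not seen by both probes.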

How the results depend on the processing

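With 1 array per line and treatment, the number of arrays limits every value here, and calls after adjustment moved with the settings. The 43 genes at least 1.5-fold apart in each line were chosen by sign and size, so their sign when a line is left out or the moderation changes is no sign of stability. Against 0 probes higher and 0 lower at an adjusted p under 0.05, there were 56 and 29 with trend and robust moderation, 4 and 2 for probes detected on all 6 arrays, 7 and 1 with no background correction, and 1 to 86 and 0 to 182 with each line left out in turn. Probes at an unadjusted p under 0.05 numbered 1789, and 760 without the replicate block (no paired term, smallest adjusted p = 0.784), 2784 with no filter on dim probes. Genes at least 1.5-fold higher and lower in each line, 21 and 22, became 32 and 40 with the authors' values, 7 and 3 with no background correction, 18 and 14 with a common median, 272 and 283 at 1.2-fold (chosen after seeing the data), and 59 to 96 and 69 to 112 with a line left out, which requires only 2 lines. The test between inducible lines and KH2 called 10 probes with no background correction. Leaving out 1 line turned the mean sign of Amn (-0.35 to 0.42), Atg5 (-0.32 to 0.096), Ier3 (-0.54 to 0.058), Myh10 (-0.31 to 0.15) and Thy1 (-0.35 to 0.14). The cause of these differences was not tested. Of 90 genes named, 30 passed the adjusted threshold with trend and robust moderation, and 0 without the block.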
